A study of Homo sapiens with 12 samples.

Results

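EndoC-βH1 cells kept in IL-1β plus IFN-γ, which are pro-inflammatory cytokines, were compared at 48 h and 24 h on circRNA microarrays, using the 6 arrays of 12 whose titles give cytokine treatment (Cyt_24hr and Cyt_48hr, replicates 1 to 3). EndoC-βH1 is a human insulin-producing β-cell line of a single origin, and exposed cells at both times received IL-1β at 50 U/mL together with IFN-γ at 1000 U/mL (n = 3 arrays per time). The other 6 arrays hold untreated EndoC-βH1 cells cultured for either 24 h or 48 h, with 3 arrays each, and they served as the measure of time without cytokines. The titles, the treatment protocol and the study's methods give exposures of 24 h and 48 h, whereas the treatment field of the 3 arrays at 48 h names an exposure of 24 h, and the titles were followed here. No source says whether the replicates came from separate cultures, so p-values measure the spread between these samples only, which may be technical.

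Circular RNAs are made when a downstream splice site is joined back to an upstream one, which leaves a closed ring without free ends. Exonucleases such as RNase R, which degrade linear RNA from its end, spare these rings, and circRNAs are for the same reason long-lived in cells. IL-1β acts mainly through NF-κB and IFN-γ through the JAK-STAT pathway. In β cells this pair of cytokines induces inflammatory and antigen-presentation genes and, over time, impairs insulin secretion and survival.

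The array carries 13617 circRNA probes, each aimed at a back-splice junction, and RNA was digested with RNase R before labelling. Signal is given as log2 of the background-subtracted fluorescence after quantile normalization over these probes, and a probe was called detected on an array when the scanner software flagged its spot as well above background. On the 6 cytokine arrays the signal of the median spot was 25 to 37 units, where local background was 14 to 15.5, and no circRNA spot was saturated on any array. The files do not pair circRNA probes with host genes or sequences, so single probes are given by their identifier. None of the 16 markers of β cells and of other islet, duct, stromal or immune cells that were listed for the check has a linear probe on the array, so the identity of the cells was not tested. In RNA from a whole culture, fewer cells and less RNA per cell cannot be told apart. All 3 arrays at 24 h lay on a first slide, with 5 of the untreated arrays, and all 3 at 48 h on a second, with the third untreated array at 48 h, so that time and slide cannot be told apart in exposed cells. Replicate 2 at 24 h was also scanned in a run of its own.

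The 3 arrays of cells exposed for 48 h were closely alike, whereas the 3 arrays at 24 h differed more from each other. Over the 10211 circRNA probes detected on at least 3 of the 12 arrays, Pearson's r between arrays (across probes, which are not independent replicates) was 0.958 to 0.965 for the 3 pairs at 48 h and 0.891 to 0.951 for the 3 pairs at 24 h. The 9 pairs that joined a 24 h array to a 48 h array gave 0.907 to 0.954, a range that overlapped the range within the 24 h group. In the same order, the mean absolute difference between arrays on the log2 scale was 0.39 to 0.45 within 48 h, 0.47 to 0.79 within 24 h and 0.47 to 0.72 between the times. The median SD of a probe over 3 arrays was 0.44 log2 units at 24 h with cytokines and 0.26 at 48 h. The untreated groups lay between these values, at 0.35 for 24 h and 0.30 for 48 h. The SD was larger at 24 h for 7254 of the 10211 probes (71.0%). Replicate 1 at 24 h was the array farthest from its group mean for 5264 probes (51.6%), replicate 3 for 3095 and replicate 2 for 1852.

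**Figure D1:**
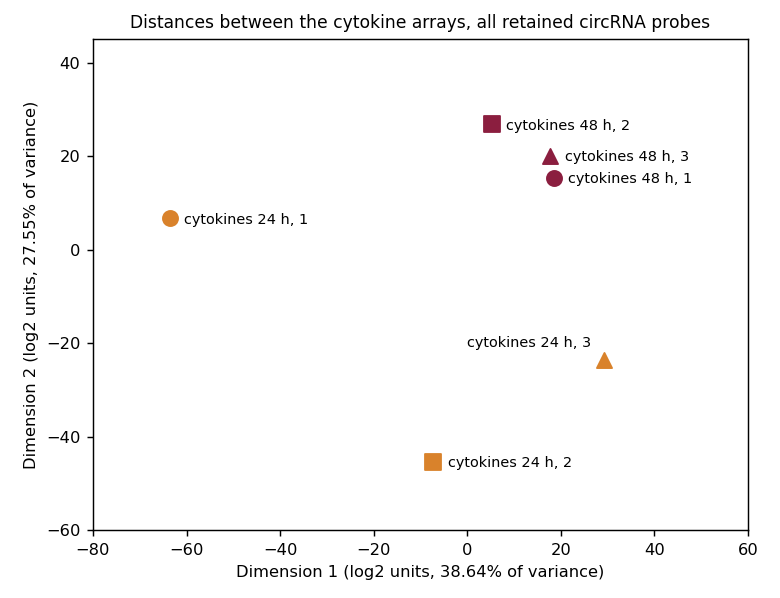
Multidimensional scaling of the 6 cytokine arrays over the 10211 retained circRNA probes, where the distance between points follows the difference in log2 signal; the x axis is the first dimension (38.6% of the variance), the y axis the second (27.6%), colour marks the time of exposure and the marker shape the replicate. The 48 h arrays lie together, and the 24 h arrays lie far apart, with replicate 1 alone at -63.5 on the first dimension and the other 5 arrays between -7.23 and 29.2.

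Between 24 h and 48 h of exposure no circRNA probe passed the cutoffs of a log2 fold change of at least 1 in either direction and an adjusted p under 0.05 (limma, Benjamini-Hochberg over 10211 probes), which is 0% of those tested. The smallest adjusted p was 0.111. At an unadjusted p under 0.05 there were 1218 probes (11.9%), of which 619 were higher at 48 h (6.06%) and 599 lower (5.87%). In untreated cells, where the same contrast also gave 0% past the cutoffs, 323 probes (3.16%) reached an unadjusted p under 0.05 and the smallest adjusted p was 0.999. The difference between the change in exposed cells and the change in untreated cells was tested as an interaction. It gave 0 probes past the cutoffs, a smallest adjusted p of 0.251 and 1035 probes (10.1%) at an unadjusted p under 0.05. Signals of the 3 arrays at 48 h all lay above those of the 3 arrays at 24 h for 953 probes (9.33%) and all below them for 842 (8.25%). In untreated cells the corresponding counts were 419 (4.10%) and 420 (4.11%).

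The count of 0 depended on how the arrays were weighted. When each array was given a weight estimated from its residual spread, 354 probes passed the cutoffs, 124 higher and 230 lower at 48 h, of which 188 were detected on all 6 cytokine arrays. In that fit replicate 1 at 24 h had the lowest weight of the 12 arrays (0.248). Replicate 3 at 24 h had a weight of 0.552 and replicate 2 one of 2.47, against 1.02 to 1.58 for the 3 arrays at 48 h. The weighted mean at 24 h thus rested mostly on replicate 2, the array scanned in a run of its own. Of the 354 probes, 237 had time groups that did not overlap and 284 had an unadjusted p under 0.05 without weights. Both counts follow in part from the choice, since the 354 were called on the same values. Over all 10211 probes, 9.33% lay wholly higher and 8.25% wholly lower at 48 h, and 11.9% had such a p. The same weighted fit called 3 probes in untreated cells. With the scan run as a random block 2 probes passed, both lower at 48 h, and 30 of the 32 alternative fits gave 0.

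Most changes were small. The median log2 difference between 48 h and 24 h in exposed cells was 0.05, and the interquartile range over probes was -0.29 to 0.33. The median SE was 0.32, and the 95% confidence interval reached a median of 0.70 log2 units to either side. For 4649 probes (45.5%) this interval lay wholly within a 2-fold change in either direction. Precision rose with signal, since the share with such an interval was 20.1% in the dimmest quartile of the probes and 58.5% in the brightest quartile. The share at an unadjusted p under 0.05 was 12.9% and 12.3% in the same quartiles. The median difference was between 0.02 and 0.08 in the lower left, lower right, upper left and upper right parts of the array.

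Larger falls outnumbered larger rises in exposed cells, although none passed the adjusted test in the unweighted fit. At 48 h 368 probes were at least 2-fold lower and 148 at least 2-fold higher than at 24 h. Among the 7884 probes detected on all 6 cytokine arrays there were 144 falls and 39 rises of this size. In untreated cells 110 probes were at least 2-fold lower and 86 at least 2-fold higher over the same time. Falls outnumbered rises in all 23 alternative fits examined for this. Leaving out an untreated array or adding the replicate block cannot change these counts, so those fits add nothing here. When a cytokine array was left out, falls ran from 321 to 620 and rises from 162 to 396. The numbers were lower in values taken before background subtraction, with 45 falls and 9 rises. With slide as a fixed block the imbalance was much smaller, at 872 falls and 653 rises, or 453 and 403 among probes detected on all 6 cytokine arrays.

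The probe chosen for a measured rise was ASCRP3004254, the one with the smallest unadjusted p among probes detected on all 6 cytokine arrays and at least 2-fold higher at 48 h without overlap. Its log2 signal was 2.52, 3.07 and 3.19 at 24 h and 4.51, 4.45 and 4.24 at 48 h. All 3 arrays at 48 h lay above all 3 at 24 h, as the choice required and as held for 9.33% of all probes. The gap was more than the range within either group. The difference was 1.47 (SE 0.32, 95% confidence interval 0.78 to 2.17), or 2.78-fold, with an adjusted p of 0.310, so the probe did not pass. In untreated cells it read 4.72, 4.34 and 3.78 at 24 h and 3.29, 3.54 and 4.28 at 48 h. The exposed cells at 24 h were thus the low group, below every untreated array, and at 48 h they were within the untreated range. The difference between the changes was 2.05 (95% confidence interval 1.07 to 3.03, adjusted p = 0.473). With slide as a fixed block the change in exposed cells was 0.61.

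The probe chosen for a rise from background, ASCRP3002570, was detected on 0 of 3 arrays at 24 h and on 3 of 3 at 48 h. It read 0.46, 1.64 and 0.10 at 24 h, all below background detection, and 2.70, 2.68 and 3.10 at 48 h. Since the level at 24 h is only bounded, the rise was at least 1.57-fold, where the dim group takes for each array the higher of its own signal and the lowest signal of any detected probe. This bound was not tested, and the adjusted p of 0.212 (limma) belongs to the difference of 2.095 log2 units as measured. The untreated arrays all detected this probe, at a mean of 3.06 ± 0.57 (SD, n = 3) at 24 h and 3.05 ± 0.34 at 48 h. Exposed cells were thus below detection at 24 h, when untreated cells were not, and close to the untreated mean at 48 h.

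The probe chosen for a measured fall, by the same rule in the other direction, was ASCRP3005026. Its log2 signal was 5.47, 6.03 and 5.26 at 24 h and 4.35, 3.94 and 4.24 at 48 h. Every 48 h array lay below every 24 h array, as the choice required and as held for 8.25% of all probes. The difference was -1.41 (SE 0.26, 95% confidence interval -1.97 to -0.84), that is 2.65-fold lower, with an adjusted p of 0.212. Untreated cells read 5.09 ± 0.25 (SD, n = 3) at 24 h and 5.22 ± 0.20 at 48 h, so the 3 exposed arrays at 48 h lay below all untreated arrays.

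The probe chosen for a fall to background, ASCRP3012088, was detected on 3 of 3 arrays at 24 h and on 0 of 3 at 48 h. It read 2.61, 2.93 and 3.36 at 24 h against 1.48, 1.18 and 1.46 at 48 h, a fall of at least 1.503-fold. This bound was not tested, and the adjusted p of 0.122 (limma) belongs to the difference of -1.595 log2 units as measured. In untreated cells it was near background at both times, being detected on 2 of 3 arrays at 24 h and 1 of 3 at 48 h. It was 1 of the 2 probes that passed with the scan run as a random block (adjusted p = 0.0352). All 4 of these probes passed in the array-weighted fit, which reuses the values they were chosen on. Their sign was the same in all 126 alternative values, many of which repeat the main estimate and could not differ. In values taken before background subtraction the changes of the measured rise and fall were 0.66 and -0.87.

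**Figure D2:**
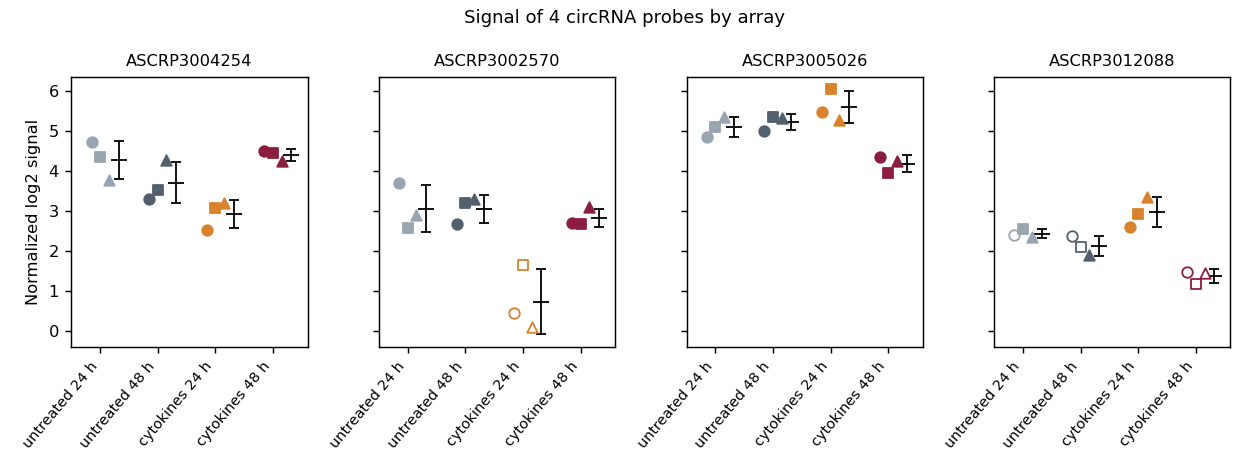
Normalized log2 signal (y axis) of 4 circRNA probes in the 4 groups (x axis), with a marker shape for each replicate, filled markers where the spot was well above background and open markers where it was not, and black bars for the mean ± SD of 3 arrays. For ASCRP3004254 and ASCRP3002570 the exposed cells at 24 h form the low group, and for ASCRP3005026 and ASCRP3012088 the exposed cells at 48 h do.

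In the unweighted fit none of the 10211 probes passed the test of a change from 24 h to 48 h. The 0 among those that responded to cytokines therefore says nothing particular about them. The raised ones had a median difference near 0, with intervals that were wide for many of them. Responders were the 198 probes (1.94% of those tested) past the cutoffs for the mean of the cytokine effects at 24 h and 48 h. They were 164 raised and 34 lowered probes. The contrast for this mean is orthogonal to the difference between the times, but independent of it only where the spread is equal. In exposed cells the median SD was 0.44 at 24 h and 0.26 at 48 h. The choice can thus favour lower values at 48 h among raised probes and higher values among lowered ones. The array-weighted fit called 3 of the 164 raised and 1 of the 34 lowered probes between the times, beside 354 of all 10211. By the choice of responders, the raised probes stood above untreated cells by a median of 1.83 log2 units at 24 h and 1.73 at 48 h. Among the 164 the smallest adjusted p for 48 h against 24 h was 0.346. Their median difference was -0.07, with 74 higher and 90 lower at 48 h, beside a median of 0.05 and 5555 of 10211 higher over all probes. At an unadjusted p under 0.05, 3 were higher (1.83%) and 9 lower (5.49%), against 6.06% and 5.87% of all probes. For 18 of the 164 (10.98%) all arrays at 48 h lay above those at 24 h and for 8 (4.88%) all below, against 9.33% and 8.25% of all probes. These shares were near or below those of all probes. The difference reached 2-fold for 5 of the 164, beside 516 of all 10211 probes, with a range of -1.29 to 1.44.

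Of the 164 raised probes, 136 were detected on all 6 cytokine arrays, and 26 were detected on no untreated array. The 95% interval of the difference between the times lay within a 2-fold change for 44 of the 164 (26.8%), a smaller share than over all probes. For 142 of them both ends of it were smaller in size than the mean response of the same probe, beside 274 of all 10211 probes. The choice of the list by a large mean response favours this. The 10 probes with the largest mean rise stood 4.28 log2 units above untreated cells at 24 h and 4.14 at 48 h (medians). Their own differences between the times ran from -0.64 to 0.69, with 6 higher and 4 lower.

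The median signal of the 164 raised probes was 5.29, 5.15 and 4.59 on the 24 h arrays and 5.06, 4.77 and 4.92 on the 48 h arrays. The lowest and the highest of these medians both belonged to 24 h, and the 48 h arrays lay between them. The median difference was -0.26 without replicate 3 at 24 h and 0.09 without replicate 1 at 24 h, and it lay between these when any other array was left out.

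The 34 lowered probes differed from untreated cells by medians of -1.11 log2 units at 24 h and -1.35 at 48 h. Their smallest adjusted p for 48 h against 24 h was 0.212. Of the 34, 13 were higher and 21 lower at 48 h, where 54.4% of all probes were higher. At an unadjusted p under 0.05, 2 were higher (5.88%) and 4 lower (11.8%), against 6.06% and 5.87% of all probes. For 2 of the 34 (5.88%) all arrays at 48 h lay above those at 24 h and for 6 (17.65%) all below, against 9.33% and 8.25% of all probes. The largest rise in the list was that of ASCRP3002570. Only 11 of the 34 were detected on all 6 cytokine arrays and 6 on none, so many of their levels are bounds. The median difference was -0.13 as measured and 0.12 with undetected groups raised to the lowest detected signal, so no direction is given for the list.

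**Figure D3:**
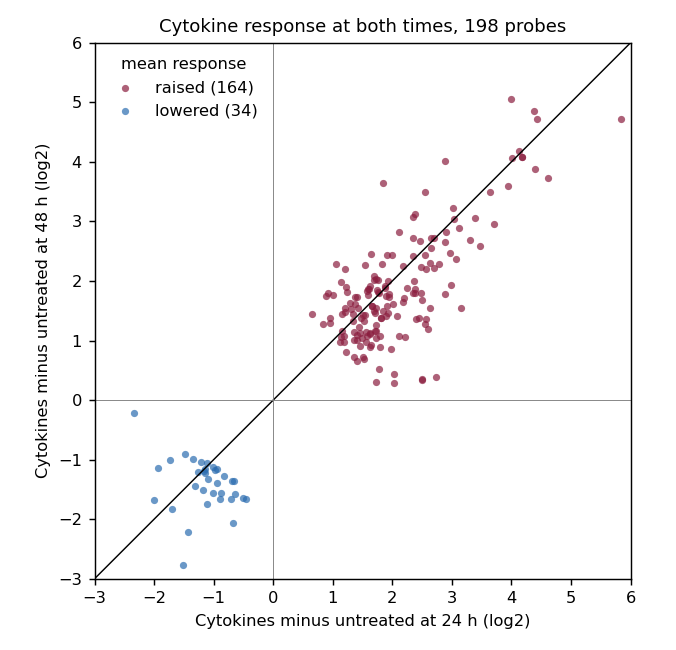
Cytokine response, as exposed minus untreated log2 signal, of the 198 probes past the cutoffs for the mean response, at 24 h (x axis) and 48 h (y axis), where each point is 1 probe, red for the 164 raised and blue for the 34 lowered, and the diagonal marks equal responses. Both lists lie on either side of the diagonal, and every probe keeps the sign of its response, which the choice by mean response favours.

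When the cytokine response was called at each time on its own, the lists share their cytokine arrays with the comparison of the times and are given side by side only. Of 113 probes called higher than untreated at 24 h, 1 was higher and 15 were lower at 48 h than at 24 h at an unadjusted p under 0.05, with a median difference of -0.18. For 86 probes called higher at 48 h the counts were 4 and 2, with a median of 0.21. The 14 probes called lower at 24 h had a median difference of 0.83, and the 14 called lower at 48 h one of -0.87.

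Most circRNA probes were detected on all 6 cytokine arrays or on none. Of the 13617 circRNA probes 7884 (57.9%) were on all 6 and 2927 (21.5%) on none. The number detected per array was 10226, 8799 and 9146 at 24 h and 9117, 9119 and 8735 at 48 h. Replicate 1 at 24 h, which also had the brightest median spot of the 6, stood above the rest, and 581 probes were detected on that array alone, against 26 to 100 for each of the others.

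In exposed cells 59 probes went from detection on 3 of 3 arrays at 24 h to 0 of 3 at 48 h, and 9 went the other way. In untreated cells the same counts were 11 and 6. The 59 lost probes were dim, with a median of 3.01 log2 units at 24 h and a fall of at least 1.55-fold at the median. For 9 of them the fall was at least 2-fold, up to at least 3.73-fold. In untreated cells 14 of the 59 were detected on all 6 arrays, 4 on none and 41 on some. Of the 9 gained probes, 5 were detected on all 6 untreated arrays, and their rises were at least 1.56-fold at the median and at least 1.80-fold at most. Without replicate 1 at 24 h 78 probes were gained and 79 lost. The rule then covers fewer arrays at 24 h and cannot count fewer probes, so these are not counts under the same criterion. It was loosened for gains and losses alike, and without that array the excess of losses was nearly absent. The imbalance was narrower with the more permissive flag for positive and significant signal, at 20 gained and 38 lost.

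**Figure D4:**
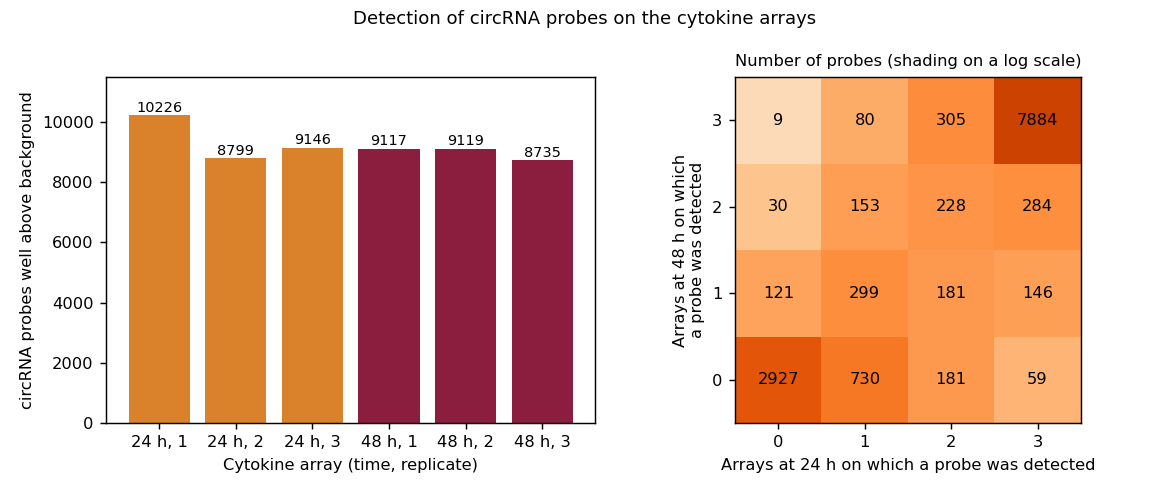
Left, the number of circRNA probes well above background (y axis) on each of the 6 cytokine arrays (x axis); right, the number of the 13617 probes detected on 0 to 3 arrays at 24 h (x axis) and 0 to 3 arrays at 48 h (y axis), shaded on a log scale. Most probes lie in the corners for all 6 or none of the arrays, and 59 against 9 lie in the corners of complete loss and complete gain.

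Linear mRNA probes on the same arrays are aimed at linear transcripts, which RNase R digestion is meant to remove. Whether their signal came from linear RNA left after digestion was not tested. Each linear probe has 10 spots, and 69 of 70 were named through their accessions and RefSeq. On all 6 cytokine arrays, only 10 exceeded the highest value among 60 negative-control probes. None of the 10 passed the cutoffs for 48 h against 24 h (limma, adjusted over 10295 probes, smallest adjusted p 0.398). Of the 10, 8 were higher at 48 h, with a median difference of 0.36, against -0.19 in untreated cells, and 1 had an unadjusted p under 0.05 beside 11.9% of all probes in that fit.

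Among them *POLR2A*, which encodes the largest subunit of RNA polymerase II, read 6.33, 6.85 and 7.12 at 24 h and 7.57, 7.28 and 7.17 at 48 h. All 48 h values lay above all 24 h values, with a difference of 0.57 (SE 0.26, adjusted p = 0.420). *RHOH*, a small GTPase known from blood cells, read 5.89, 6.41 and 6.82 and then 7.27, 6.84 and 6.94, a difference of 0.65 (SE 0.28, adjusted p = 0.398). The differences of *SERPIND1*, the gene for heparin cofactor II, and *MTX1*, a mitochondrial import protein, were 0.57 and 0.31. Without replicate 1 at 24 h the differences were 0.35 for *POLR2A*, 0.41 for *RHOH*, 0.26 for *SERPIND1* and 0.0013 for *MTX1*.

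The linear probes that were lower at 48 h were those of *GAPDH*, a glycolytic enzyme, and *ACTG1*, a cytoplasmic actin. *GAPDH* varied least of the 10 at 48 h, with 8.05, 7.89 and 7.95 at 24 h and 7.79, 7.79 and 7.76 at 48 h, a difference of -0.19 (SE 0.20, adjusted p = 0.719). Every *GAPDH* value at 48 h lay below every value at 24 h. *ACTG1* differed by -0.33 (SE 0.28, adjusted p = 0.637), and by -0.18 without replicate 1 and -0.54 without replicate 3 at 48 h. *PFN1*, the actin-binding profilin and the brightest of the 10, read 10.03 on replicate 1 at 24 h and 11.3 to 12.1 on the other 5 arrays. Its difference of 0.18 became -0.50 without that array. The ribosomal stalk protein *RPLP1* and the ribosome-bound scaffold *RACK1* differed by 0.37 and 0.34, and both turned negative, to -0.36 and -0.15, without replicate 3 at 48 h.

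Single arrays stood apart in these probes. Replicate 1 at 24 h was the lowest of the 6 arrays for 5 of the 10 genes (*MTX1*, *PFN1*, *POLR2A*, *RHOH* and *SERPIND1*), and replicate 3 at 48 h the highest for 4, among them *ACTG1*, *RACK1* and *RPLP1*. The median of the 10 was 6.06, 6.31 and 6.64 at 24 h and 6.54, 6.52 and 7.23 at 48 h. How much linear RNA each digestion left, and its part in the circRNA values, was not tested. The 15 circRNA control probes of the array design, all above the negative controls on every array, had a median difference of 0.19, with 12 higher at 48 h and a smallest adjusted p of 0.405. In untreated cells 10 of the 15 were higher at 48 h, with a median of 0.10.

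**Figure D5:**
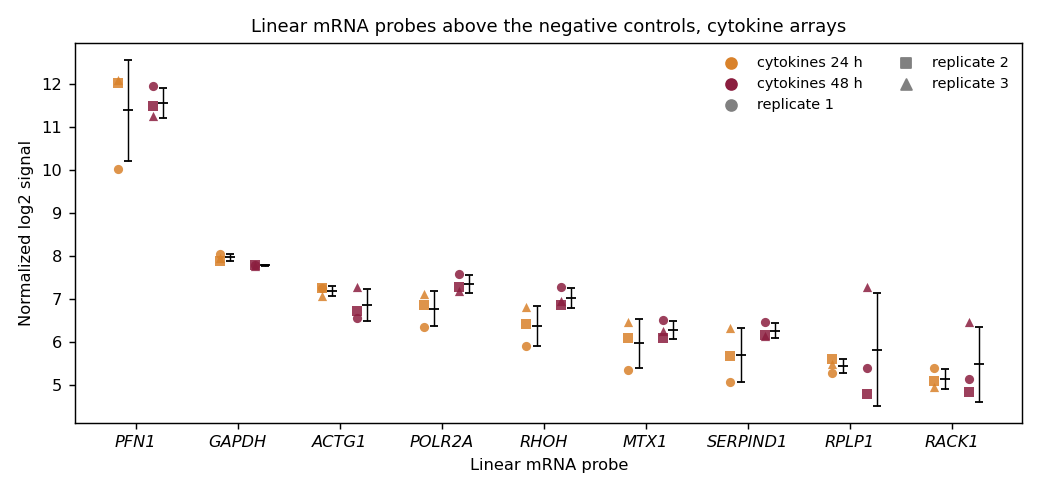
Normalized log2 signal (y axis) of 9 of the 10 linear mRNA probes above the negative controls (x axis) on the 6 cytokine arrays, orange for 24 h and dark red for 48 h, with a marker shape for each replicate and black bars for the mean ± SD of 3 arrays. Replicate 1 at 24 h is the low point for *PFN1*, and replicate 3 at 48 h stands above the other 48 h arrays for *RPLP1* and *RACK1*.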

How the data were processed

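The authors deposited spot intensities from Feature Extraction 11.0.1.1 (median signal, local background, and a processed signal after background subtraction) and detection flags coded 0 or 1. They also deposited a table of quantile-normalized log2 values, whose signal and background correction are not given in the sources used here. For the circRNA probes, processed signals were put on a log2 scale and quantile normalized, and probes well above background on at least 3 of 12 arrays were kept. Means of the 4 groups were fitted in R 4.3.3 using limma 3.58.1 (eBayes, no trend), following the study's cutoffs. Linear mRNA probes were fitted together with the circRNA probes after quantile normalization over all spots that are not scanner controls. The fit was tested on simulated data. Figures used matplotlib 3.10.9. Precision is limited by 3 arrays per group and by signals close to background.

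The members, lists and tests were chosen with earlier results of these data known. In each direction, 1 probe detected on all 6 cytokine arrays, with time groups that did not overlap, and 1 detected on 3 of 3 against 0 of 3 were named. Each had the smallest unadjusted p among those of its kind with a log2 fold change of at least 1 in size, since none passed. All linear probes above the negative controls were named except 1, which is counted in the summaries and is not reported here.

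Alternatives covered signal, background correction (normexp, offset 50), normalization, filters, weights, blocks, the samples fitted and leaving out each array.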

Additional observations from a re-analysis of the deposited data

How the results depend on the processing

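For 48 h against 24 h in exposed cells, 354 probes passed with array weights, 2 with the scan run as a random block (consensus correlation -0.085) and 0 in the other 30 alternative fits, with smallest adjusted p-values from 0.0573 to 0.582, apart from 1 when the fold change itself was tested against a 2-fold change. Counts at an unadjusted p under 0.05 were 502 with slide as a fixed block, which rests on the untreated 48 h arrays that span both slides, and 740 (without cytokines 24 h replicate 2) to 1915 (without cytokines 24 h replicate 3) when arrays were left out. Untreated cells gave 3 with array weights and 0 in the alternatives planned for them, and the difference of the changes 0 to 3 when arrays were left out, the 3 without untreated 24 h replicate 3. The replicate block gave 0 calls and 1136 probes at an unadjusted p under 0.05. Arrays with the same replicate number gave correlations of -0.14, -0.15 and 0.14 between the times, a measure other than the Pearson's r of signals given above. With 3 arrays per group these values cannot show whether the replicate numbers pair the samples. The block changed no call.

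For lowered responders the median difference was 0.12 with the floor and -0.28 to -0.10 when arrays were left out. Complete gains and losses of detection were 20 and 38 with the positive-and-significant flag. They ran from 9 to 78 and from 79 to 141 when arrays were left out, where the rule covers fewer arrays and cannot count fewer probes. The median SDs at 24 h and 48 h were 0.23 and 0.15 before background subtraction and 0.22 and 0.14 in the deposited values. *PFN1* turned to -0.10 with cyclic loess and ran from -0.50 (without cytokines 24 h replicate 1; -0.02 without cytokines 48 h replicate 1) to 0.54. *RACK1* ran from -0.15 to 0.67 and *RPLP1* from -0.36 to 0.90, both lowest without cytokines 48 h replicate 3. The causes were not tested.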
